A study of Homo sapiens with 12 samples.

Results

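The genes described here are 40 genes of glycolysis and of the response to low oxygen, taken by gene symbol from a table of 58735 genes; the rule is a list of symbols and uses no measured value. They fall into roles: glucose uptake and hexokinases (3 genes), upper glycolysis (9), lower glycolysis (6), the fate of pyruvate and lactate (3), carbonic anhydrases (2), HIF alpha subunits and the prolyl hydroxylases that act on them (4), mitophagy receptors (2), secreted factors (4), collagen hydroxylases and oxidative folding (3) and other HIF target genes (4). RNA was sequenced from KYSE150 and KYSE180, established lines of human oesophageal squamous cell carcinoma that were each used with 1 manipulation of CDCA7, a cell-cycle gene with a zinc finger that acts at chromatin. The groups were native KYSE180 (genotype WT) and KYSE180 labelled CDCA7 overexpression, and native KYSE150 (genotype WT) and KYSE150 labelled shCDCA7, a short hairpin against CDCA7, with 3 libraries in each and 12 in all. All cells were grown in serum-supplemented medium in a humidified incubator, and the labels name no low-oxygen treatment, no empty vector and no control hairpin. The labels do not say whether the 3 libraries of a group came from separate cultures, so the p-values measure only the spread between these libraries, which may be technical.

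Glycolysis splits glucose into pyruvate in the cytosol, and lactate dehydrogenase turns pyruvate into lactate, which leaves the cell through monocarboxylate transporters. The hypoxia-inducible factors (HIFs) are pairs of an alpha and a beta subunit that bind DNA and raise transcription of glucose transporters, glycolytic enzymes, angiogenic factors and pH regulators. In the presence of oxygen the EGLN prolyl hydroxylases mark HIF alpha proteins for degradation, so the HIF1A transcript and HIF1A protein need not move together, and only transcripts were measured here. High glycolysis and carbonic anhydrase IX at the plasma membrane are well known in squamous carcinomas.

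HIF binds the core letters ACGTG or GCGTG, and the RefSeq table of promoters (GRCh38.p14) was searched for both on either strand in the 250 bases before each transcript start. It held 67 such windows for 37 of the 40 genes. Either core was present in 42 of the 67 windows and in 43.2% of all 35116 windows of the table; ACGTG was in 25 of 67 against 18.5% of all, GCGTG in 25 of 67 against 32.2%. The longer palindrome CACGTG, which holds ACGTG on both strands and so counts as 2 matches, was in 8 of 67 against 6.34%. A match describes the letters of a window and is neither a site of binding nor a cause. The windows below are those of genes that passed the test described further on in either line and whose window holds no annotated exon; capitals mark the matches.
HK2: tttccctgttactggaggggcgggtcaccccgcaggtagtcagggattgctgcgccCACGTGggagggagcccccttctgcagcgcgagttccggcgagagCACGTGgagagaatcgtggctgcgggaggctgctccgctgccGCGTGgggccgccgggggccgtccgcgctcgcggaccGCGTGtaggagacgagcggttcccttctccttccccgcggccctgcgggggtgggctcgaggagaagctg
PFKFB3: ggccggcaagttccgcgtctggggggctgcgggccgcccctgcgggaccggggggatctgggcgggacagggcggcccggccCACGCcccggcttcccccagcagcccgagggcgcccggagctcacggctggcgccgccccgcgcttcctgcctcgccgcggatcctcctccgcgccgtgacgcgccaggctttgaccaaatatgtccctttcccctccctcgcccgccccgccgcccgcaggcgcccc
HIF1A: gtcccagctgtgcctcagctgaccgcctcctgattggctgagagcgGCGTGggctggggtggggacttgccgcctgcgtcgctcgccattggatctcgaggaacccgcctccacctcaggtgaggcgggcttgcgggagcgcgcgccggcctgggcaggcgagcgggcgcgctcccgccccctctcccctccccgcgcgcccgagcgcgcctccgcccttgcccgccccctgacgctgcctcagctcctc
MXI1: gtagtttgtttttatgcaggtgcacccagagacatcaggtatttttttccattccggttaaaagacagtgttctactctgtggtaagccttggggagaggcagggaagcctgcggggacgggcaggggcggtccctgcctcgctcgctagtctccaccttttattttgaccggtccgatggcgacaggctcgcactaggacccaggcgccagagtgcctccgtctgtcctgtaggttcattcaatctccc

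The HK2 window (chr2:74834920-74835169, plus strand) held 6 matches, with 2 copies of CACGTG. The PFKFB3 window (chr10:6144671-6144920, plus strand) and the HIF1A window (chr14:61695263-61695512, plus strand) held 1 match each. The MXI1 window (chr10:110207355-110207604, plus strand) held none, while another MXI1 start held 2. Among windows that reach into exons and are not printed, that of BNIP3 held 6 matches, those of CA9, ADM and PFKFB4 1 each, and those of SLC2A1 and EGLN3 none. Each KDM3A window held 1. A further window, also not printed, held 3 matches for HK2, 2 for PFKFB3, 1 for MXI1 and none for HIF1A.

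Libraries held 16.3M to 19.6M reads assigned to genes. CDCA7, the targeted gene, was at 24, 18.2 and 17.4 FPKM (fragments per kilobase of gene, scaled to library size) in the KYSE180 controls and at 44.6, 59.1 and 57.9 in the overexpression libraries. In KYSE150 it was at 27.4, 25.6 and 25.6 in the controls against 9.24, 10.1 and 8.83 with the hairpin, so every library matched its label. Of 10 squamous epithelial markers, 9 or 10 reached 1 FPKM in each library, but SOX2 was at or below 0.205 FPKM in KYSE150. Their summed level moved with the groups: it was 481 to 507 FPKM in the KYSE150 controls and 765 to 834 with shCDCA7, where 5 of 9 tested passed as higher in limma (KRT5, KRT17, TP63, DSG3 and EPCAM) and 0 as lower (0 also at an unadjusted p under 0.05). In KYSE180 it was 2212, 3940 and 2118 FPKM in controls 1, 2 and 3 and 4353 to 5096 with overexpression, where limma called 0 of 10 (5 higher and 0 lower at an unadjusted p under 0.05). Of all genes tested, limma called 10% higher and 9.86% lower in KYSE150, and 4.65% and 4.43% in KYSE180. The part of these markers in the results was not tested. Of the fibroblast, leukocyte and endothelial markers, 0 or 1 per list reached 1 FPKM. shCDCA7 replicate 2 stood apart from its replicates: r was 0.962 and 0.964 to replicates 1 and 3, which correlated at 0.996, and mitochondrially encoded genes took 11.2% of its reads against 5.2% and 5.73%. Mitochondrially encoded genes also took 7.97% to 8.65% of reads in the overexpression libraries against 4.76% to 6.38% in the KYSE180 controls, and their part in the results was not tested. In such bulk libraries, fewer cells that express a gene and less RNA of it per cell cannot be told apart.

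Both lines expressed the glycolytic pathway strongly. GAPDH, the dehydrogenase of the middle of the pathway, was the most abundant of the 40 transcripts per length in the KYSE150 controls, at 1292, 1300 and 1307 FPKM, followed by TPI1 (triose phosphate isomerase) at 352, 357 and 348 FPKM. In the KYSE150 controls 23 of the 40 genes had a mean of at least 10 FPKM, and 4 had a mean below 1 FPKM; in the KYSE180 controls these counts were 25 and 4. The 16 glycolytic enzymes summed took 1.43% ± 0.0153 (SD, n = 3) of reads in the KYSE150 controls and 1.14% ± 0.288 (SD, n = 3) in the KYSE180 controls. They took 1.32% ± 0.118 (SD, n = 3) with shCDCA7 and 0.91% ± 0.0187 (SD, n = 3) with overexpression. For the hairpin the direction depended on the scale: summed FPKM was 3041 ± 30 (SD, n = 3) in the KYSE150 controls and 3605 ± 689 (SD, n = 3) with shCDCA7, where the share of reads was lower on average. The shCDCA7 sums were 3210, 4401 and 3204 FPKM in replicates 1, 2 and 3, and the shares of reads 1.26%, 1.46% and 1.25%. Replicate 2 lay above the control shares of 1.41% to 1.44%, so these groups overlapped. Without GAPDH the sums were 1630, 2204 and 1597 FPKM with shCDCA7, against 1763, 1760 and 1700 in the controls. In KYSE180 the share of reads and the summed FPKM were both lower on average with overexpression, with overlap between the groups. Summed FPKM was 2223 ± 74 (SD, n = 3) there against 2492 ± 655 (SD, n = 3) in the controls.

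Many of these genes differed in level between the lines, at about the rate of all genes. Between the control groups, 27 of the 40 genes passed the test (limma on log2(FPKM + 1), adjusted over all genes at 0.05), 15 higher and 12 lower in KYSE180, that is 37.5% and 30% of those tested. Of all 17088 genes tested, 33.4% were higher and 24.6% lower (58% in either direction), so the share of members was near that of the transcriptome, and line and culture history cannot be told apart. Groups did not overlap for 16 higher and 15 lower members, against 39.4% and 31.8% of all genes. The members that differed included transporters, enzymes and secreted factors. CA12, EGLN3 and ANGPTL4 had too few reads in KYSE150 to be tested there, and CA9 had too few in KYSE180. They were tested here only through the line where they are high. Their direction was thus fixed in advance, though they are counted among the genes that passed.

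**Figure D1:**
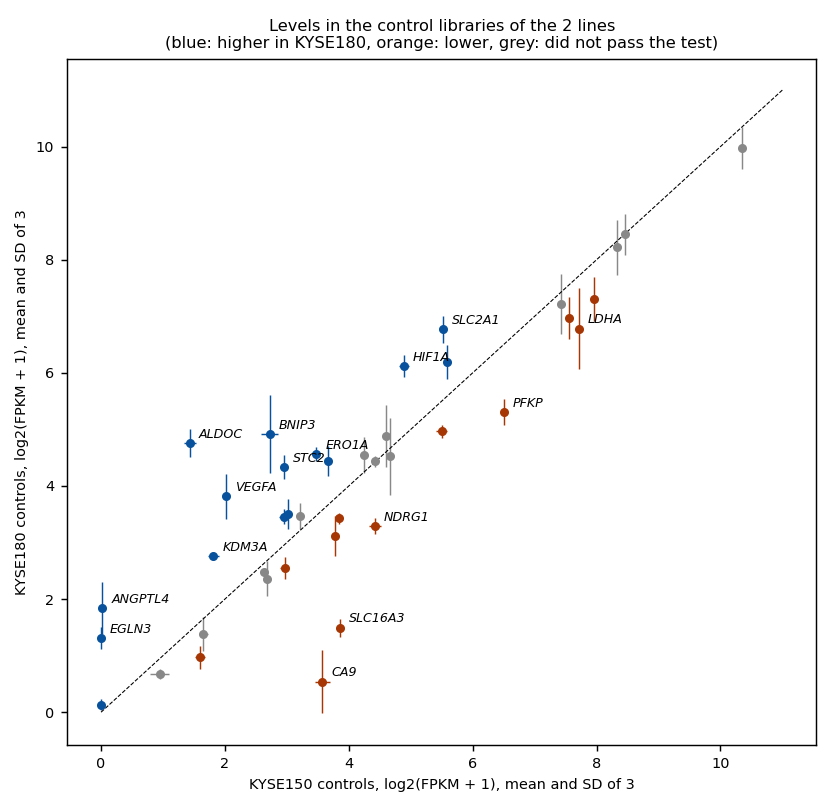
Mean level of each of the 40 genes in the 3 KYSE150 controls (horizontal axis) and the 3 KYSE180 controls (vertical axis), both as log2(FPKM + 1), with bars of 1 SD and a dashed line of equality. Blue points (15 genes) passed the test as higher in KYSE180, orange points (12) as lower and grey points did not pass; ALDOC lies farthest above the line and CA9 farthest below.

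Of the aldolase paralogs, ALDOC passed and ALDOA did not. ALDOC, the aldolase best known from brain, was at 1.88, 1.72 and 1.52 FPKM in the KYSE150 controls and at 21.8, 31.1 and 25.8 in the KYSE180 controls, a log2 difference of 3.32 (SE 0.16, limma adjusted p = 1.21e-08). ALDOA was at 4.87, 5.33 and 5.39 FPKM in KYSE150 and at 4.5, 4.7 and 4.43 in KYSE180 (log2 difference -0.16, limma adjusted p = 0.517). ALDOC thus made up 85.1% ± 2.02 (SD, n = 3) of aldolase FPKM in the KYSE180 controls and 24.8% ± 2.97 (SD, n = 3) in those of KYSE150. The ALDOA level is uncertain, because 42.3% of its exonic length is shared on the same strand with the annotated gene AC093512.2, and reads in shared exons can be lost or split in counting.

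Genes for lactate export and pH control ran the other way. CA9, the membrane carbonic anhydrase that is a standard hypoxia marker, was at 11.8, 11.1 and 9.82 FPKM in the KYSE150 controls and at 0.244, 1.26 and 0.0911 in the KYSE180 controls (log2 difference -3.03, SE 0.23, limma adjusted p = 4.76e-07). SLC16A3, which exports lactate as MCT4, was at 13.9, 13.8 and 13 FPKM in KYSE150 and at 1.88, 1.5 and 2.11 in KYSE180 (log2 difference -2.37, SE 0.31, limma adjusted p = 5.13e-05). No KYSE180 control reached the lowest KYSE150 control for these 2 genes, but CA9 was tested only through its KYSE150 reads. CA12 had no read in any KYSE150 library, while 3 reads would have been 0.0192 to 0.0211 FPKM in the controls. It was at 0.184 FPKM or less in KYSE180. Unlike the others it passed as higher in KYSE180 (log2 difference 0.13, which depends on the added 1, limma adjusted p = 0.0307). CA12 was tested only through its KYSE180 reads, so that direction was fixed in advance.

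Several glycolytic enzymes were lower in KYSE180. PFKP, the platelet phosphofructokinase, was 87.8, 92.7 and 89.4 FPKM in the KYSE150 controls against 41.9, 42.8 and 31.9 in KYSE180, and made up 74.1% ± 0.802 (SD, n = 3) and 54.4% ± 6.23 (SD, n = 3) of phosphofructokinase FPKM. Lower in KYSE180 with it were LDHA (log2 difference -0.94), PKM (-0.65), PGAM1 (-0.59), PFKM (-0.41) and HK1 (-0.54) among the enzymes, PDK1 (-0.62) and PFKFB3 (-0.67) among the regulators, and EPAS1 (-0.41) and NDRG1 (-1.13) among the others. LDHA and PKM did not pass without KYSE180 control replicate 3 or KYSE150 control replicate 1, PKM also not without KYSE150 control replicate 2, EPAS1 not without KYSE150 control replicate 2, and CA12 not when any 1 of the 3 KYSE150 controls was left out. GPI, the second enzyme of the pathway, was the only glycolytic enzyme besides ALDOC that passed as higher in KYSE180 (log2 difference 0.60).

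Other genes higher in KYSE180 included a glucose transporter, a mitophagy receptor and secreted factors. SLC2A1, the glucose transporter GLUT1, was at 45.6, 45.9 and 42.8 FPKM in the KYSE150 controls and at 118, 120 and 89.3 in KYSE180 (log2 difference 1.26, SE 0.13, limma adjusted p = 7.76e-06). BNIP3, a mitophagy receptor, was at 6.2, 5 and 5.62 FPKM in KYSE150 and at 25, 50.5 and 19.7 in KYSE180 (2.20, SE 0.25, limma adjusted p = 1.96e-05). VEGFA, the vascular growth factor, was at 3.04, 2.93 and 3.19 FPKM in KYSE150 and at 14, 9.36 and 16.9 in KYSE180 (1.79, SE 0.17, limma adjusted p = 4.49e-06). The groups do not overlap for these 3 genes. ANGPTL4 (1.82), STC2 (1.39), HIF1A (1.23), ERO1A (1.08), KDM3A (0.94), P4HA1 (0.78), MXI1 (0.51) and EGLN1 (0.48) were higher on the same scale. ANGPTL4, which encodes a secreted inhibitor of lipoprotein lipase, had 0, 1 and 1 reads in the KYSE150 controls and 72, 187 and 116 in those of KYSE180. It was tested only through its KYSE180 reads, so its direction was fixed in advance.

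EGLN3, a prolyl hydroxylase that is itself a HIF target, had no read in the 3 KYSE150 controls, where 3 reads would have been 0.019 to 0.021 FPKM, and 1 read in the shCDCA7 libraries together. In the KYSE180 controls it was at 1.2, 1.89 and 1.4 FPKM. The log2 difference of 1.31 (SE 0.1, limma adjusted p = 4.98e-07) depends on the added 1 and is not a fold. EGLN3 was tested only through its KYSE180 reads, so that direction was fixed in advance. EGLN1, the main oxygen sensor of this family, was at 6.97, 7.13 and 7.35 FPKM in the KYSE150 controls and at 10.4, 12.7 and 8.5 in KYSE180.

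**Figure D2:**
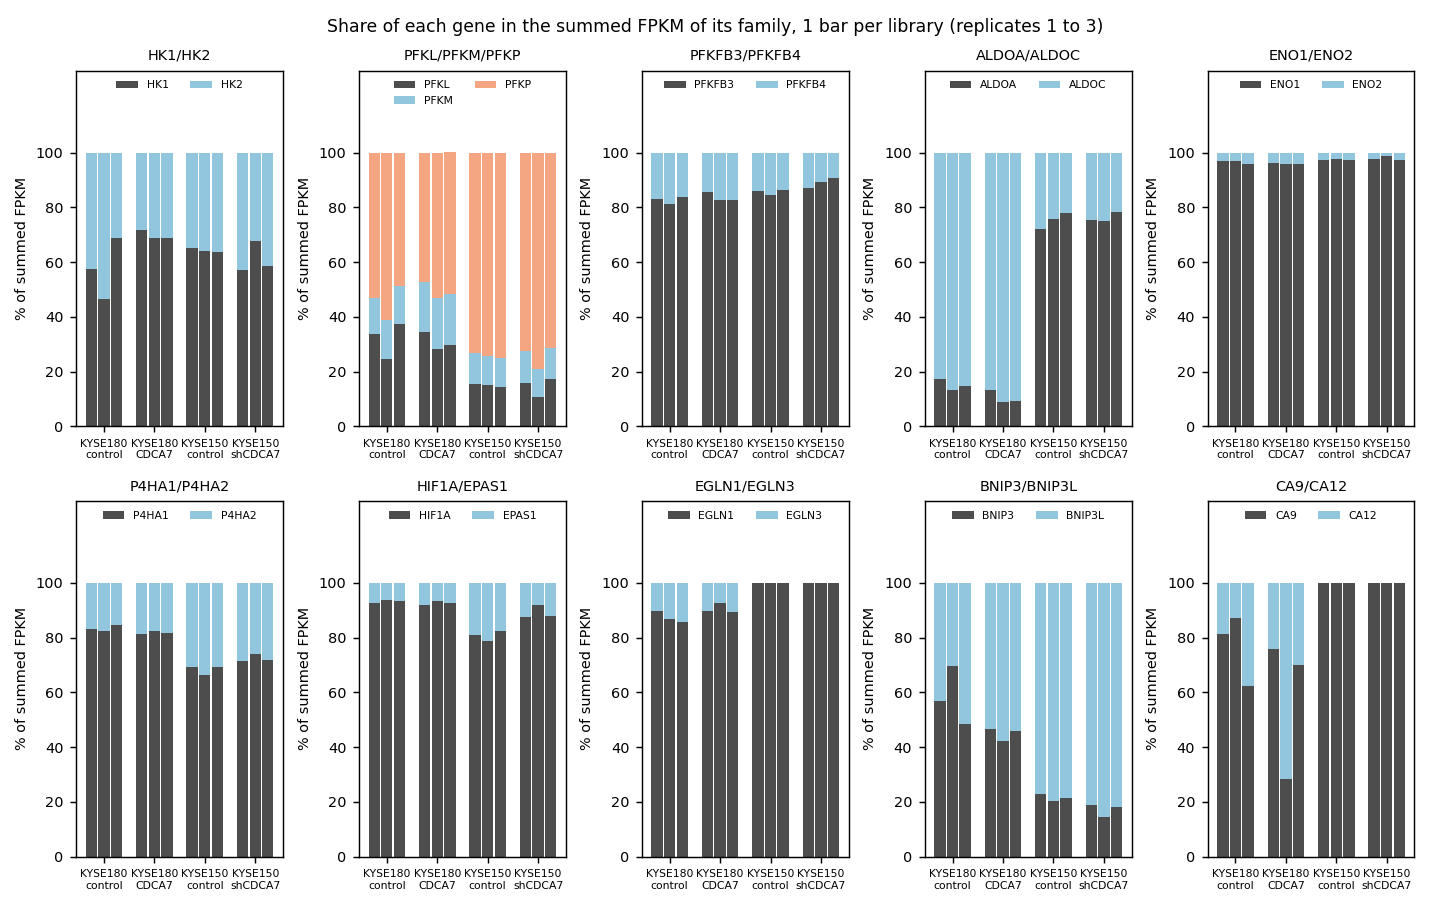
Share of each gene in the summed FPKM of its family in percent (vertical axis), 1 stacked bar for each library in each of the 4 groups. The aldolase panel shows ALDOC as most of the signal in KYSE180 and ALDOA in KYSE150, but the ALDOA level is uncertain because of exons shared with AC093512.2. The BNIP3 panel shows a BNIP3 share of 58.3% on average in the KYSE180 controls and 44.9% with overexpression.

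In KYSE180, few of these genes passed the test between the overexpression libraries and the native controls, which already express CDCA7. The labels name no empty vector, so effects of the construct and of added CDCA7 cannot be told apart. Of 39 genes tested (CA9 was too low), 1 was higher, MXI1, and 2 were lower, PFKFB3 and EGLN3 (2.56% and 5.13%); of all 15944 genes tested, 4.65% were higher and 4.43% lower (9.08% in either direction). With libraries scaled to their total reads the counts were 0 higher and 6 lower. The median log2 change was -0.09 over the 39 genes and 0 over all genes. Groups did not overlap for 4 members that were higher and 9 that were lower in the overexpression libraries, against 17.7% and 17.4% of all genes.

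PFKFB3 (ENSG00000170525, chr10:6144934-6254644), whose product makes the allosteric activator of phosphofructokinase, was at 8.99, 8.94 and 5.56 FPKM in the controls, compared with 3.81, 4.16 and 4.31 with overexpression. Every overexpression library lay below every control. The log2 change was -0.77 (SE 0.18, limma adjusted p = 0.0431), and the mean FPKM was 0.522 times that of the controls. Its paralog PFKFB4 was at 1.82, 2.04 and 1.06 FPKM in the controls against 0.648, 0.868 and 0.907 with overexpression, also without overlap, with a log2 change of -0.53 that did not pass (limma adjusted p = 0.0748).

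EGLN3 (ENSG00000129521, chr14:33924231-34462774) was at 1.2, 1.89 and 1.4 FPKM in the controls, compared with 0.748, 0.5 and 0.819 with overexpression. All 3 overexpression values lay below the lowest control. The log2 change was -0.56 (SE 0.14, limma adjusted p = 0.0444). EGLN1 was at 6.42, 6.44 and 6.96 FPKM with overexpression, below all of its controls, and had a log2 change of -0.58 (limma adjusted p = 0.0532).

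MXI1 (ENSG00000119950, chr10:110207605-110287365) encodes an antagonist of MYC that is a known HIF target. It was at 9.07, 9.93 and 11.1 FPKM in the controls against 15, 14.7 and 14.1 with overexpression. Every overexpression library lay above every control, and the log2 change was 0.50 (SE 0.12, limma adjusted p = 0.04). All 3 calls in this line were lost when any of the overexpression libraries, or control replicate 1, was left out, and the limma adjusted p for MXI1 then reached 0.156; PFKFB3 and EGLN3 were also lost without control replicate 2.

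**Figure D3:**
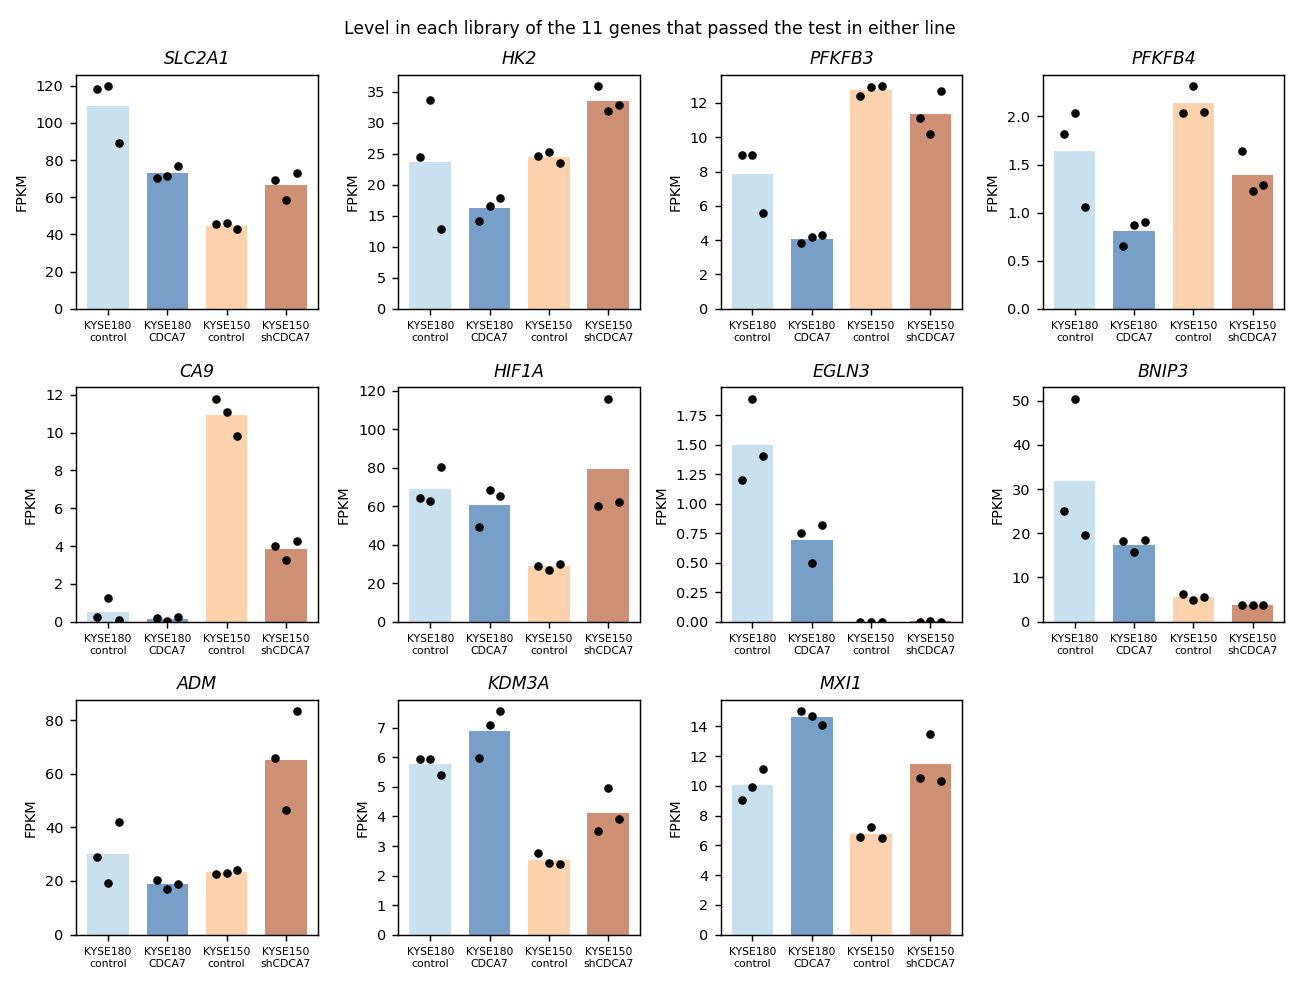
FPKM in each library (points, replicates 1 to 3 from left to right) and group mean (bars) for the 11 genes that passed the test in either line, in 4 groups. MXI1 is higher with either manipulation of CDCA7, SLC2A1 is lower than its controls with overexpression and higher with the hairpin, and CA9 is far lower in KYSE180 than in KYSE150.

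The KYSE180 controls varied among themselves in these genes. Among the 36 members at 1 FPKM or more in every control, the median ratio of the highest to the lowest control was 1.51, and 18 exceeded 1.5; over all such genes the median ratio was 1.33. In the KYSE150 controls the same ratios were 1.07 for members and 1.1 for all genes. Of 38 members that reached 1 FPKM, control replicate 2 was the highest of the 3 for 24 (63.2%) and replicate 3 the lowest for 25 (65.8%), against 38.9% and 39.3% of all genes. The summed squamous markers were highest in control 2 too.

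The spread was seen in enzymes of several steps. LDHA, the lactate dehydrogenase subunit of glycolytic cells, was at 120, 170 and 63.4 FPKM in KYSE180 controls 1, 2 and 3, and at 65.5, 68.5 and 69.5 with overexpression. HK2, the inducible hexokinase, was at 24.5, 33.7 and 12.8 FPKM in the controls, compared with 14.1, 16.6 and 17.9 with overexpression. BNIP3 was at 25, 50.5 and 19.7 FPKM in the controls against 18.3, 15.7 and 18.4 with overexpression. For LDHA and HK2, control 3 lay below all 3 overexpression libraries while controls 1 and 2 lay above them, so the groups overlapped. ADM, VEGFA and HIF1A had another pattern in the controls: ADM was at 29.1, 19.1 and 41.8 FPKM, lowest in control 2 and highest in control 3.

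Without control 3, 11 of 39 members were lower with overexpression and 2 were higher (28.2% and 5.13%), against 7.08% and 7.93% of all genes. The 11 were SLC2A1, HK2, PFKP, PFKFB3, PFKFB4, PGK1, PGAM1, LDHA and PDK1 of the glycolytic roles, and EGLN1 and EGLN3. Their log2 changes then ran from -1.06 for LDHA (limma adjusted p = 0.015) to -0.50 for PDK1 (limma adjusted p = 0.0417). VEGFA joined MXI1 among the higher genes, at 0.91 (limma adjusted p = 0.0207). With all 3 controls LDHA had -0.68 (SE 0.31, limma adjusted p = 0.192) and VEGFA 0.74 (SE 0.19, limma adjusted p = 0.0528). Every library was left out in turn, and this fit is described because of the values of control 3. That control was the lowest of the 3 for most of these members, so leaving it out favours lower calls. The counts without it are therefore no separate support for lower levels with overexpression. Why control 3 differs was not tested.

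**Figure D4:**
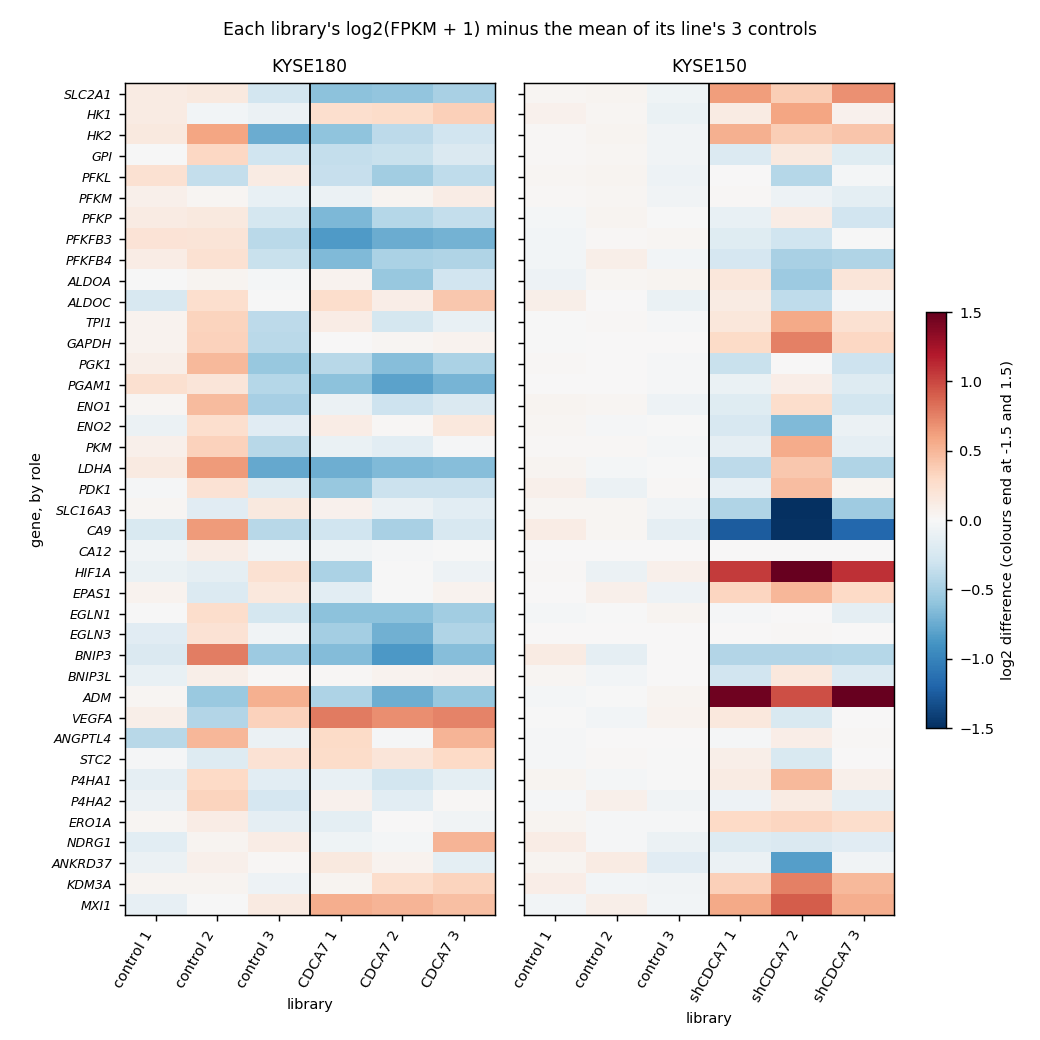
Colour shows log2(FPKM + 1) of each gene (rows, by role) in each library (columns) minus the mean of the 3 controls of its line, in log2 units, with red higher and blue lower. The KYSE180 controls differ among themselves along most glycolytic rows, with replicate 2 red and replicate 3 blue, the KYSE150 controls are nearly white, and shCDCA7 replicate 2 differs from replicates 1 and 3.

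In KYSE150, a regulator, a transporter and a secreted factor were among the genes higher with the hairpin against CDCA7, and CA9 was lower. The labels name no control hairpin, so effects of the construct and of less CDCA7 cannot be told apart. Of 37 genes tested (CA12, EGLN3 and ANGPTL4 were too low), 6 were higher (ADM, HIF1A, MXI1, SLC2A1, KDM3A and HK2) and 3 lower (CA9, BNIP3 and PFKFB4), 16.2% and 8.11% of those tested. Of all 14342 genes tested, 10% were higher and 9.86% lower (19.9% in either direction). Scaling libraries to total reads moved the median of all genes to -0.16 in this line and gave 3 higher and 9 lower. The median log2 change was -0.06 over the 37 genes and 0 over all genes, and groups did not overlap for 11 higher and 6 lower members, against 25.3% and 22.5% of all genes.

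CA9 (ENSG00000107159, chr9:35673856-35681159) was at 11.8, 11.1 and 9.82 FPKM in the controls, compared with 4.01, 3.24 and 4.26 with shCDCA7. Every shCDCA7 library lay below every control. The log2 change was -1.30 (SE 0.13, limma adjusted p = 0.00313), and the mean was 0.352 times that of the controls. This was the only one of the 9 calls to hold whichever library was left out, with limma adjusted p up to 0.0342. ARHGEF39, a gene on the opposite strand that covers 38.5% of the exonic length of CA9, was also lower, with 2.67, 2.72 and 2.94 FPKM in the controls and 1.27, 1.46 and 1.62 with shCDCA7 (log2 change -0.63, SE 0.1, limma adjusted p = 0.0101). The sources used here do not say whether counting used strand, and without it reads of overlapping genes cannot be told apart.

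ADM (ENSG00000148926, chr11:10304680-10307397) encodes adrenomedullin, a secreted vasodilator peptide. It was at 22.7, 23.1 and 24 FPKM in the controls against 65.8, 46.5 and 83.2 with shCDCA7. The lowest shCDCA7 library was above all controls, and the mean was 2.8 times theirs. The log2 change was 1.41 (SE 0.2, limma adjusted p = 0.0077), and the call was lost only without control replicate 2 (limma adjusted p = 0.0516). The other secreted factors did not pass: VEGFA was at 3.04, 2.93 and 3.19 FPKM in the controls, compared with 3.51, 2.47 and 3.07 with shCDCA7, and STC2 (stanniocalcin 2) had a log2 change of -0.04 (SE 0.12).

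HIF1A (ENSG00000100644, chr14:61695513-61748259), the oxygen-regulated subunit of HIF-1, was at 29.1, 26.8 and 30.2 FPKM in the controls against 60.3, 116 and 62.2 with shCDCA7. All 3 shCDCA7 libraries were above all controls, and replicate 2 was far above the other shCDCA7 libraries. The log2 change was 1.37 (SE 0.25, limma adjusted p = 0.0152) with replicate 2 and 1.07 (SE 0.05, limma adjusted p = 2.64e-05) without it. EPAS1, which encodes HIF-2 alpha, was at 6.82, 7.22 and 6.37 FPKM in the controls, compared with 8.71, 10 and 8.62 with shCDCA7, without overlap but short of the threshold (limma adjusted p = 0.0522). HIF1A made up 80.8% ± 1.91 (SD, n = 3) of the FPKM of the 2 alpha subunits in the controls and 89.1% ± 2.55 (SD, n = 3) with shCDCA7.

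The glucose transporter GLUT1 and a hexokinase were both higher. SLC2A1 (ENSG00000117394, chr1:42925375-42959176) was at 45.6, 45.9 and 42.8 FPKM in the controls against 69.4, 58.3 and 72.8 with shCDCA7 (log2 change 0.56, SE 0.11, limma adjusted p = 0.0167). HK2 (ENSG00000159399, chr2:74833981-74893359) was at 24.7, 25.3 and 23.5 FPKM in the controls, compared with 36, 31.9 and 32.9 with shCDCA7 (log2 change 0.44, SE 0.09, limma adjusted p = 0.0183). Groups did not overlap for either gene. HK1, the constitutive hexokinase, overlapped, with 46.5, 45.2 and 41.2 FPKM in the controls and 48.2, 67.2 and 46.4 with shCDCA7.

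The 2 higher genes of the remaining targets act in the nucleus. MXI1 was at 6.53, 7.22 and 6.5 FPKM in the controls against 10.5, 13.5 and 10.3 with shCDCA7 (log2 change 0.67, SE 0.13, limma adjusted p = 0.017). KDM3A (ENSG00000115548, chr2:86440647-86492716), a histone H3 lysine demethylase, was at 2.76, 2.41 and 2.4 FPKM in the controls, compared with 3.5, 4.96 and 3.92 with shCDCA7 (log2 change 0.53, SE 0.14, limma adjusted p = 0.0402). In both, every shCDCA7 library was above every control.

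BNIP3 and PFKFB4 were lower together with CA9. BNIP3 (ENSG00000176171, chr10:131966455-131982013) was at 6.2, 5 and 5.62 FPKM in the controls against 3.86, 3.84 and 3.88 with shCDCA7 (log2 change -0.44, SE 0.11, limma adjusted p = 0.0369). PFKFB4 (ENSG00000114268, chr3:48517684-48562015) was at 2.04, 2.32 and 2.05 FPKM in the controls, compared with 1.64, 1.23 and 1.29 with shCDCA7 (log2 change -0.40, SE 0.1, limma adjusted p = 0.0435). The groups were apart for both genes, while the paralogs BNIP3L (20.9, 19.8 and 20.5 FPKM against 16.6, 22.9 and 17.6) and PFKFB3 (12.4, 12.9 and 13 FPKM against 11.1, 10.2 and 12.7) overlapped. Reads of BNIP3 can be shared with its 39 annotated pseudogenes, which together held at most 6.34% as many reads.

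Most calls in this line did not hold in every fit that left out 1 library. SLC2A1, HK2 and BNIP3 passed in 1 of 6 fits that left out a library, the one without shCDCA7 replicate 2 (limma adjusted p up to 0.0879, 0.0999 and 0.168 in the others). HIF1A and MXI1 failed when any 1 of the controls was left out (limma adjusted p up to 0.0786 and 0.0919), and KDM3A and PFKFB4 when any 1 control or shCDCA7 replicate 3 was left out (up to 0.158 and 0.171).

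Without shCDCA7 replicate 2, 10 of 37 members were higher and 13 lower (27% and 35.1%), against 29.5% and 26.4% of all genes. With it, 10% and 9.86% of all genes passed, so leaving it out raised the calls across all genes. All 9 calls made with it were kept, but the fits share every other library. Every library was left out in turn, and this fit is described because replicate 2 stood apart. It is therefore no separate support for the calls. The glycolytic enzymes then passed in both directions. LDHA (216, 205 and 208 FPKM in the controls, 160 and 153 in shCDCA7 replicates 1 and 3) had a log2 change of -0.42 (limma adjusted p = 0.000268). PGK1, the first ATP-forming enzyme of the pathway, was at 173, 171 and 169 FPKM in the controls against 136 and 138 in replicates 1 and 3 (-0.32, limma adjusted p = 0.000426). GPI, PFKP, PGAM1, ENO1 and PKM had log2 changes of -0.13 to -0.23 and SLC16A3 of -0.49, all lower, while GAPDH (0.29) and TPI1 (0.20) were higher. Of the hypoxia genes, ERO1A (0.28, limma adjusted p = 0.00259) and EPAS1 (0.31, limma adjusted p = 0.00548) were then also higher, and BNIP3L (-0.24, limma adjusted p = 0.00425) and NDRG1 (-0.18, limma adjusted p = 0.0453) lower.

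Replicate 2 pointed elsewhere for many of these genes. It held LDHA at 277 FPKM, PKM at 366 and GAPDH at 2197, each above every other KYSE150 library, and SLC16A3 at 2.78 FPKM against 9.62 and 9.09 in replicates 1 and 3. With it included, LDHA had a log2 change of -0.15 (SE 0.23) and PGK1 of -0.21 (SE 0.11), and neither passed (limma adjusted p = 0.682 and 0.23). Its higher share of mitochondrial reads moves with these values, and its part in them was not tested.

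The remaining members did not pass in either line with all libraries. ERO1A, an oxidase of protein folding in the endoplasmic reticulum, was at 10.4, 9.95 and 10 FPKM in the KYSE150 controls and at 12.7, 12.9 and 12.3 with shCDCA7, without overlap and just short of the threshold (limma adjusted p = 0.0535). The collagen prolyl hydroxylases P4HA1 (12, 11.4 and 11.6 FPKM against 12.8, 16.8 and 12.4) and P4HA2 (5.33, 5.75 and 5.18 against 5.1, 5.96 and 4.86) had log2 changes of 0.23 and -0.03 in KYSE150. NDRG1, a stress-induced gene, was at 22.1, 20.2 and 19.1 FPKM in the KYSE150 controls and at 17.7, 17.4 and 18.1 with shCDCA7, a small step down without overlap (log2 change -0.19, limma adjusted p = 0.17). ANKRD37 was at 1.1 FPKM or less in every library and shares 35.2% of its exonic length with UFSP2 on the opposite strand. ENO2, PFKL, PFKM and PDK1 had log2 changes between -0.33 and 0.13 in KYSE150 and between -0.42 and 0.09 in KYSE180.

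**Figure D5:**
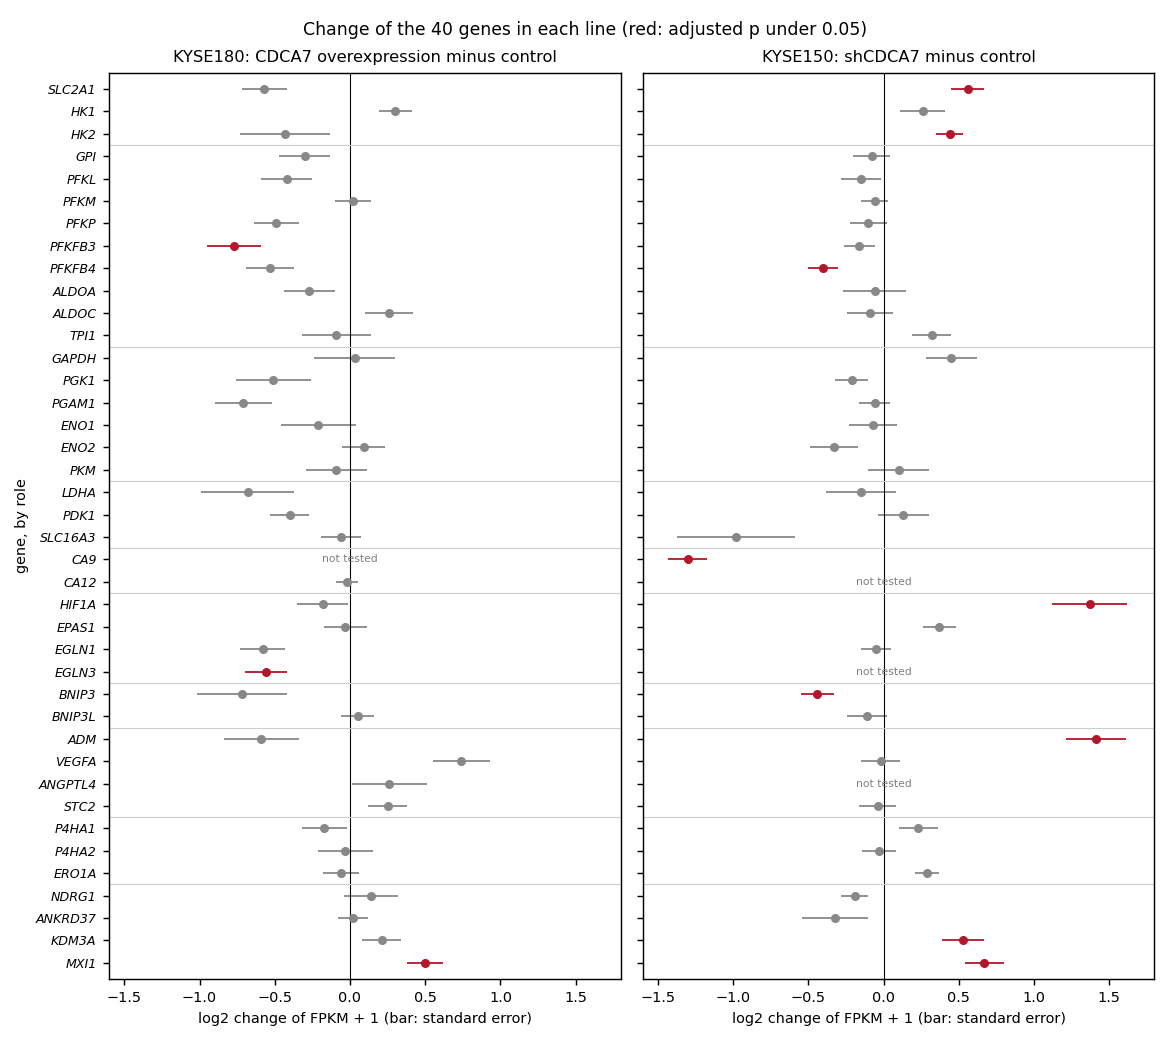
Log2 change of FPKM + 1 with its standard error for the 40 genes by role (rows) after CDCA7 overexpression in KYSE180 (left) and shCDCA7 in KYSE150 (right); red marks an adjusted p under 0.05. In KYSE180 3 genes are red, MXI1 above 0 and PFKFB3 and EGLN3 below; in KYSE150 6 are red above 0 and 3 below, with CA9 at -1.30 and ADM at 1.41.

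Whether the 2 manipulations differ in their effect was tested directly, as the KYSE180 change minus the KYSE150 change in 1 fit of all 12 libraries. Of 40 genes 4 had a lower difference and 0 a higher one (10% and 0% of those tested), against 2.7% and 2.87% of all 17088 genes (5.57% in either direction). At an unadjusted p under 0.05 in limma, 2 were higher and 11 lower, and limma-voom called 0 higher and 3 lower. The 4 were ADM, HIF1A, SLC2A1 and EGLN3, but EGLN3 had almost no reads in KYSE150, so no effect could be measured there and its value repeats the KYSE180 change. Among the 36 members that passed the filter on low values in each line by itself, counted so after the values were seen, 3 were lower and 0 higher (8.33% and 0%), against 2.24% and 2.44% of the 13377 such genes. The median difference was -0.24 over the 40 genes and -0.01 over all genes. Since the manipulations go in opposite directions and the lines differ, line and direction cannot be told apart.

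ADM had the largest difference, -2.00 (SE 0.35, limma adjusted p = 0.0111), from -0.59 in KYSE180 and 1.41 in KYSE150. Its overexpression libraries, at 20.5, 16.8 and 19 FPKM, overlapped with the KYSE180 controls. SLC2A1 differed by -1.13 (SE 0.18, limma adjusted p = 0.00724), from -0.57 in KYSE180, where 70.5, 71.2 and 76.8 FPKM lay below all controls but did not pass (limma adjusted p = 0.0544), and 0.56 in KYSE150. Both genes passed in all 12 fits that left out 1 library.

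HIF1A differed by -1.56 (SE 0.32, limma adjusted p = 0.0212), from -0.18 in KYSE180 and 1.37 in KYSE150: the overexpression libraries, at 49.1, 68.5 and 65.1 FPKM, overlapped with KYSE180 controls at 64.1, 62.5 and 80.5. It failed when any 1 of the KYSE150 controls was left out (limma adjusted p up to 0.066). EGLN3, with 1 read in the 6 KYSE150 libraries together, had a value of -0.57 (SE 0.14, limma adjusted p = 0.0397), against -0.56 for its change in KYSE180 alone, and is no test of a difference between the lines.

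MXI1 stood apart from these 4 in that it passed as higher in both lines, 1.46 times the control mean with overexpression and 1.69 times with the hairpin. The difference of its log2 changes was -0.17 (SE 0.17, limma adjusted p = 0.594). PFKFB4 was at 0.493 and 0.65 times the control means, and passed in KYSE150 but not in KYSE180; the difference of its changes was -0.14 (SE 0.2, limma adjusted p = 0.746). No test here shows that these effects are equal.

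Further genes of the pathways followed mixed courses. Of 20 further HIF target genes tested in KYSE180, 2 were higher and 2 lower, and of 19 in KYSE150, 2 were higher and 3 lower, with medians of -0.22 and 0.10. Of all genes tested, 4.65% were higher and 4.43% lower in KYSE180, and 10% and 9.86% in KYSE150. These shares are the background for the lists below too. BHLHE40, a circadian repressor that HIF induces, was higher in both lines: 14.7, 14.5 and 11.4 FPKM rose to 25.4, 22.8 and 27.2 in KYSE180 (log2 change 0.85, SE 0.14, limma adjusted p = 0.0195), and 11.5, 12.1 and 10.9 to 25.1, 20 and 26.8 in KYSE150 (0.99, SE 0.13, limma adjusted p = 0.00623). DDIT4, an inhibitor of mTORC1, was higher in KYSE180 (1.36, SE 0.22, limma adjusted p = 0.0197), and PLOD2 (-0.57) and KDM4B (-0.51) were lower there. SLC2A3, the neuronal glucose transporter GLUT3, rose in KYSE150 from 13.1, 12.7 and 12.6 FPKM to 28.6, 30.9 and 30.3 (1.16, SE 0.08, limma adjusted p = 0.00181) and was at or below 0.281 FPKM in KYSE180. MIF (a log2 change of -1, SE 0.23), GYS1 (-0.62) and TMEM45A (-0.44) were lower with shCDCA7. MIF rests on few reads, 50, 45 and 44 in the controls and 18, 1 and 13 with shCDCA7.

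Of the enzymes of the pentose phosphate pathway, which makes NADPH and ribose from glucose, PGD (log2 change 0.56) and TKT (0.53) were higher in KYSE150. Of 11 genes of pyruvate entry into mitochondria, PDP1 (0.96) and MPC2 (0.39) were higher in KYSE150, and limma called 0 in KYSE180 (2 higher and 1 lower at an unadjusted p under 0.05).

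Of 13 further glycolysis and lactate genes tested in KYSE150, SLC16A1 and SLC2A12 were higher (0.71 each) and limma called 0 lower, with 0 also at an unadjusted p under 0.05; of 12 in KYSE180, SLC2A6 was lower (-0.74) and limma called 0 higher (1 at an unadjusted p under 0.05). SLC16A1 (MCT1) also moves lactate, and was at 48.1, 48.8 and 49.4 FPKM in the KYSE150 controls and at 71.2, 101 and 72.1 with shCDCA7, while the other lactate transporter, SLC16A3, was at 13.9, 13.8 and 13 against 9.62, 2.78 and 9.09 (log2 change -0.98, SE 0.39, limma adjusted p = 0.125). Of 10 HIF partners and degradation genes tested, ARNT2 was lower in KYSE150 (-0.37), and limma called 0 in KYSE180 (2 higher at an unadjusted p under 0.05). ARNT2 had few reads in KYSE150, 64, 62 and 51 in the controls and 12, 4 and 7 with shCDCA7. In the test of the difference of effects, 4 of 20 further HIF targets passed as lower, PLOD2 (-1.16), SLC2A3 (-0.99) and PGM1 (-0.68) by the most, with SLC16A1 (-0.87) and PGD (-0.89) from the other lists. Of all genes in that test, 2.7% passed as lower. SLC2A3 passed in all 12 fits that left out a library, PLOD2 in 9, SLC16A1 in 5, and PGD and PGM1 in 2. SLC2A3, at or below 0.281 FPKM in KYSE180, where its change is held near 0 by the added 1, turned to 0.20 with limma-voom on the recovered reads.

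With libraries left out in turn, the KYSE180 calls of BHLHE40, PLOD2, KDM4B and SLC2A6 were lost when any 1 overexpression library or control replicate 1 was left out, KDM4B also without control replicate 2, and that of DDIT4 without overexpression replicate 1 or 3 or control replicate 1. In KYSE150, BHLHE40, SLC2A3 and PDP1 passed in all 6 such fits. The other genes of these lists named above as higher or lower in KYSE150 were lost without control replicate 2, and all of them but ARNT2 also without either other control. PGD, GYS1, MPC2 and TMEM45A were lost without shCDCA7 replicate 1 or 3 as well, so they passed in 1 of 6 fits, and MIF was lost without shCDCA7 replicate 3.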

How the data were processed

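RNA from 12 libraries of 2 cell lines was analysed from a table of gene-level FPKM that the authors deposited; per the submitters' processing notes, HISAT2 2.0.5 and DESeq2 1.20.0 were used. The notes name the mouse build mm10, but the identifiers, starts and ends of all 58735 genes in the table are those of GENCODE 29 on human GRCh38, and the gene length is the union of exons. The counting tool and its strand setting are not given in the sources used here. FPKM times length came out as whole reads (tolerance 0.01) for 100% of values above 0, and 1 read was worth 0.0511 to 0.0614 CPM.

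Tests used limma 3.58.1 in R 4.3.3 (limma-trend, two-sided) on log2(FPKM + 1), keeping genes that reached 10 reads, scaled to the median library, in 3 libraries and 15 reads in all. P-values were adjusted by Benjamini-Hochberg over all genes tested, with calls under 0.05. Fold changes on this scale understate the change of low genes. The members and lists were chosen with earlier results of these data known. Members called in either line are given in every library, other members by level, and up to 3 called genes per direction from each further list. Members that passed only without KYSE180 control 3 or shCDCA7 replicate 2 were named after their values were seen. The tests were checked on simulated data with a common spread and no library that stood apart. That check does not cover groups of unequal spread, as found here. Alternatives were other scalings, filters and pseudocounts, limma-voom, a replicate block, 1 fit of all libraries, and each library left out. The result of 1 gene and the count of its list are not reported here.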

Additional observations from a re-analysis of the deposited data

Results flagged for a closer look

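For 4 genes the test of the difference of effects passed (KYSE180 change minus KYSE150 change, limma adjusted p under 0.05), on the log2(FPKM + 1) scale. The difference was -2.00 for ADM, -1.56 for HIF1A, -1.13 for SLC2A1 and -0.57 for EGLN3. ADM and SLC2A1 passed in all 19 alternatives run for this comparison, HIF1A in 15 and EGLN3 in 6. EGLN3 is nearly absent from KYSE150, with 1 read in 6 libraries, so its value repeats its KYSE180 change and shows no difference between the lines. The lines received opposite manipulations, so line and direction of the manipulation cannot be told apart.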

How the results depend on the processing

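With 3 libraries a group, leaving out 1 library changed several counts. In KYSE180 (1 member higher, 2 lower) the alternatives gave 0 higher and 0 lower without a filter on low values, 2 higher with upper-quartile scaling, 0 and 6 with total-read scaling, 2 and 5 with limma-voom on the recovered reads, and 2 and 7 in 1 fit of all 12 libraries. Leaving out 1 library gave 0 to 2 higher and 0 to 11 lower. In KYSE150 (6 higher, 3 lower) they gave 1 lower without a filter, 1 lower with upper-quartile scaling, and 3 higher and 9 lower with total-read scaling, where the median of all genes was -0.16; leaving out 1 library gave 0 to 10 higher and 1 to 13 lower. For the difference of effects (0 higher, 4 lower; limma) there were 2 lower without a filter, and 0 to 1 higher and 2 to 8 lower with 1 library left out. Between the controls the counts stayed at 14 to 16 higher and 10 to 14 lower with 1 library left out. The causes were not tested.

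Same-numbered libraries did not visibly deviate together, with correlations of -0.08 to 0.05 against -0.08 to 0.11 for differently numbered ones. Whether same-numbered libraries were prepared together cannot be told from these values. With the replicate block the counts were 0 higher and 0 lower in KYSE180, and 2 and 1 in KYSE150.

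Directions reversed in 7 single-gene values. The KYSE150 change of PKM (0.10) was -0.16 with total-read scaling and ran from -0.13 without shCDCA7 replicate 2 to 0.22 without replicate 1. With 1 library left out, those of ENO1 (-0.07), LDHA (-0.15) and PFKP (-0.10) ran from -0.23, -0.42 and -0.20 without shCDCA7 replicate 2 to 0.04, 0.01 and 0.00 without replicate 3. In the difference of effects, SLC2A3 (-0.99) was 0.20 with limma-voom, and BNIP3 (-0.28) ran from -0.55 without KYSE180 control replicate 3 to 0.11 without control replicate 2. Of the other single-gene values 1374 kept direction and side of the threshold, 227 no longer passed and 57 newly passed.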
